A study of Homo sapiens with 6 samples.

Results

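The genes described here are those of MHC class I antigen presentation: the heavy chains *HLA-B*, *HLA-C* and *HLA-E*, the light chain *B2M*, the peptide transporter subunits *TAP1* and *TAP2*, the loading factor *TAPBP*, the trimming peptidase *ERAP1* and the transactivator *NLRC5*. They were chosen by name, with earlier results of these data known. Each of the 9 matched 1 of the 63677 gene identifiers in the count table. All 9 were among the 12507 genes that had enough counts to be tested. The study transfected LoVo, a human colorectal cancer line, at 25 nM with Lipofectamine and collected RNA after 48 h. The siRNA condition received both siRNAs against *SNHG15*, a long noncoding RNA, and the scramble condition received a negative control siRNA. Each condition had 3 libraries, which the study calls biological replicates, so a transient knockdown in bulk cultures of 1 line was measured and each siRNA was not measured on its own.

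MHC class I molecules show fragments of the cell's own proteins to cytotoxic T cells and natural killer cells. A heavy chain pairs with the light chain beta-2-microglobulin in the endoplasmic reticulum, where *TAP1* and *TAP2* bring in peptides cut by the proteasome, *ERAP1* shortens them and tapasin, the product of *TAPBP*, helps load them. *NLRC5* switches on the heavy chain genes, *B2M* and *TAP1* through promoter boxes shared by these genes, and interferon raises the whole set. Tumors of the colon are known to lose parts of this machinery, and the LoVo line is known to carry inactivating mutations of *B2M*.

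Before the results, the labels were checked. *SNHG15* itself stood at 261.3 to 289.8 CPM (counts scaled to the TMM-adjusted size of each library) in the scramble libraries and at 77.2 to 87.2 CPM in the siRNA libraries, so that 29.9% remained (log2 fold change -1.74, adjusted p = 2.615e-05, from edgeR's quasi-likelihood fit, adjusted after Benjamini and Hochberg across the whole table). Library totals ran from 3446922 counts in scramble replicate 3 to 10256710 in scramble replicate 2. On the first principal component, which held 46.0% of the variance, siRNA replicate 1 lay farthest out. The cell line label was not borne out by its markers. Of 12 markers of colon epithelium fixed for this check, 8 had 3 counts or fewer in every library, among them *EPCAM*, *KRT19*, *KRT20*, *VIL1*, *CDH17* and *CEACAM5*, the gene of the carcinoembryonic antigen that LoVo is known to secrete. Only *KRT8*, *KRT18*, *CDH1* and *CDX2* were read well enough to be tested. The 12 markers summed to 102 to 110 CPM in the scramble and 106 to 117 CPM in the siRNA libraries. Within this sum *CDH1*, the gene of E-cadherin, stood at 6.45, 8.55 and 7.56 CPM in the scramble and 3.05, 5.18 and 5.05 CPM in the siRNA libraries without overlap (log2 fold change -0.76, unadjusted p = 0.00971, adjusted p = 0.0945, edgeR), and *KRT8*, a keratin, had a siRNA mean of 119% of the scramble mean (log2 fold change 0.26, edgeR adjusted p = 0.369). Whether this bears on the genes described here was not tested. All 9 leukocyte markers were at 3 counts or fewer in every library, as were 5 of the 6 fibroblast and endothelial markers in the table. The libraries are therefore called here by their condition only, and the name LoVo is the label's.

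The promoters of the class I genes are shown because the heavy chains, *B2M* and *TAP1* are known to be driven through common motifs. RefSeq's table of promoters (GRCh38.p14) held an entry for 7 of the 9 genes, the others being *HLA-E* and *NLRC5*. Each line gives, in the direction of transcription, the bases from 180 to 21 before the annotated start. Capitals mark matches on either strand to GGGANTNNC (a kappaB site), TTTCNNTT (the core of an interferon-stimulated response element), TGACG (the centre of the X box, a CRE) and CCAAT (the Y box). The stretches lie at chr6:31357200-31357359 (minus strand) for *HLA-B*, chr6:31272113-31272272 (minus) for *HLA-C*, chr15:44711337-44711496 (plus) for *B2M* and chr6:32853725-32853884 (minus) for *TAP1*.
HLA-B promoter: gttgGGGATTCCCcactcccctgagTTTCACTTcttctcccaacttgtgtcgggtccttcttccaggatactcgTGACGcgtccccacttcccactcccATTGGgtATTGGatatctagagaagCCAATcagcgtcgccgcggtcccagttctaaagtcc
HLA-C promoter: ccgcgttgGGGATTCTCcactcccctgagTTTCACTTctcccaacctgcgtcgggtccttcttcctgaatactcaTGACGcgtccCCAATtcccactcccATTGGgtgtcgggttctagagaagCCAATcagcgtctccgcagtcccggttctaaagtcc
B2M promoter: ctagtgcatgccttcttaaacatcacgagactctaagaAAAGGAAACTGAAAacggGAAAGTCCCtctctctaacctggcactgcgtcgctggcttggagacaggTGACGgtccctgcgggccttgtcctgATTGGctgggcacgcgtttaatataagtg
TAP1 promoter: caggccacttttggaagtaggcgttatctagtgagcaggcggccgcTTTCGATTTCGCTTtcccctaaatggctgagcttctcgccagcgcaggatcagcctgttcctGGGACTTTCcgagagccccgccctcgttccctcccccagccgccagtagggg

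In the stretches shown, *HLA-B*, *HLA-C* and *B2M* held all 4 motifs, and *TAP1* held the kappaB and response element motifs but neither of the others. *HLA-B* and *HLA-C* carried a kappaB match, a response element, a TGACG and 3 CCAAT matches in the same order. The kappaB match of *HLA-B* fits the pattern on both strands, with different letters on each, and was counted on each. In *B2M* and *TAP1* a pair of response element matches overlap. Over the whole 300-base windows, every gene described here that had an entry held TTTCNNTT in at least 1 window. No kappaB match was found in the window of *TAP2*, and no TGACG in those of *TAP1*, *TAPBP* and *ERAP1*. The window of *PSMB9*, a neighbour on the opposite strand, overlaps that of *TAP1* and held 1 TGACG and 1 CCAAT match. Among all 35116 windows of this length in the table, 15.4% held GGGANTNNC, 22.8% TTTCNNTT, 24.6% TGACG and 34.6% CCAAT, so short matches of this kind are common. No binding was measured in this study, and a match is a description of the letters only.

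On the hg19 build the heavy chain, transporter and tapasin genes lie in the MHC region of chromosome 6. *HLA-B* (ENSG00000234745) runs from 31321649 to 31334844 on the minus strand, *HLA-C* (ENSG00000204525) from 31236526 to 31239907 on the minus strand and *HLA-E* (ENSG00000204592) from 30457286 to 30461971 on the plus strand. *TAP1* (ENSG00000168394) runs from 32812986 to 32821593, *TAP2* (ENSG00000204267) from 32789610 to 32806516 and *TAPBP* (ENSG00000231925) from 33267471 to 33282061, all on the minus strand. Outside the region, *B2M* (ENSG00000166710) lies on chromosome 15 from 45003556 to 45011049 (plus), *NLRC5* (ENSG00000140853) on chromosome 16 from 57023397 to 57117443 (plus) and *ERAP1* (ENSG00000164307) on chromosome 5 from 96096514 to 96143803 (minus). The counts cover exons of these genes.

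The order of the genes was set by their level per length, the CPM divided by the kilobases of all annotated exons merged. In the scramble libraries *HLA-C* was the highest, at 576 ± 77.7 CPM per kb (SD, n = 3), followed by *HLA-B* at 110 ± 19.2 and *HLA-E* at 72.5 ± 8.26. *TAP2* followed at 9.50 ± 0.711 CPM per kb, *TAPBP* at 6.45 ± 0.816, *B2M* at 5.43 ± 2.98 and *TAP1* at 5.37 ± 1.24. *NLRC5* stood at 1.98 ± 0.154 CPM per kb and *ERAP1* at 0.965 ± 0.135. The heavy chains thus lay far above the rest of the pathway, and the light chain with which all of them pair sat among the transporter and loading genes. Among neighbours in this order, the scramble libraries of *TAPBP* and *B2M* overlapped, as did those of *B2M* and *TAP1*. All other neighbours were apart in the scramble libraries. In the siRNA libraries *HLA-B*, at 75.1 ± 12.7 CPM per kb, overlapped *HLA-E*, at 66.7 ± 5.04, since siRNA replicate 1 had 62.0 CPM per kb of *HLA-B* and 69.7 of *HLA-E*. *B2M*, at 7.27 ± 3.96 CPM per kb, moved ahead of *TAPBP*, at 5.73 ± 0.785, with overlapping libraries.

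The order depends in part on the length used. With the canonical transcript in place of merged exons, a choice made after the values were seen, the 3 heavy chains kept places 1 to 3 and *B2M* moved from place 6 to place 4 in the scramble libraries, at 18.0 ± 9.85 CPM per kb beside 17.4 ± 1.30 for *TAP2*. *HLA-B* has 4623 bases of merged exons against 1536 in the canonical transcript, and stood at 330 ± 57.9 CPM per kb with the shorter.

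**Figure D1:**
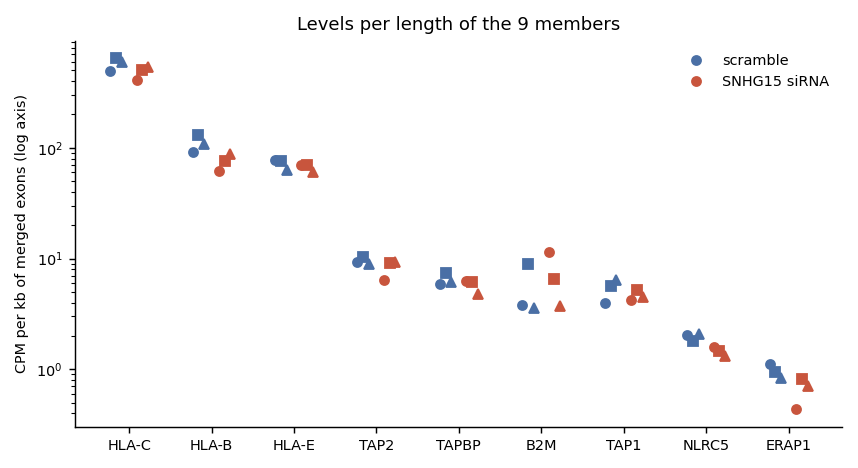
Level per length of the 9 genes in each library, as CPM per kb of merged exons on a log axis, with the genes ordered by their scramble mean and the replicates 1, 2 and 3 drawn as circles, squares and triangles. HLA-C lies at 412 to 643 CPM per kb in all libraries, and B2M spreads from 3.59 to 11.6 CPM per kb, more widely than the genes beside it.

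The comparison of the siRNA with the scramble libraries asks which genes of the pathway differ after *SNHG15* knockdown. None of the 9 genes passed an adjusted p of 0.05 with edgeR, where 5.36% of all 12507 genes did and 2.23% passed with a lower level. At an unadjusted p under 0.05, 3 of the 9 were found, *HLA-B*, *NLRC5* and *ERAP1*, beside 22.5% of all genes. With DESeq2, which called 6.13% of the genes it tested, 1 of the 9 passed, *HLA-B*. The fitted log2 fold change was below 0 for 8 of 9 genes, *B2M* being the exception, beside 49.9% of all genes, and the median over the 9 was -0.21 beside 0.000497 over all genes. In 3 of the 9 the siRNA libraries all lay under the scramble libraries, a separation in this direction that 14.1% of all genes showed. In siRNA replicates 1 and 2, 8 of the 9 genes lay below their scramble mean, and in siRNA replicate 3 all 9 did. The share of all genes below their scramble mean was not taken for each library, so these counts have no background. The genes share libraries and regulators, so their directions are not independent of each other. In bulk RNA, fewer cells that express a gene and less RNA in each cell cannot be told apart.

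**Figure D2:**
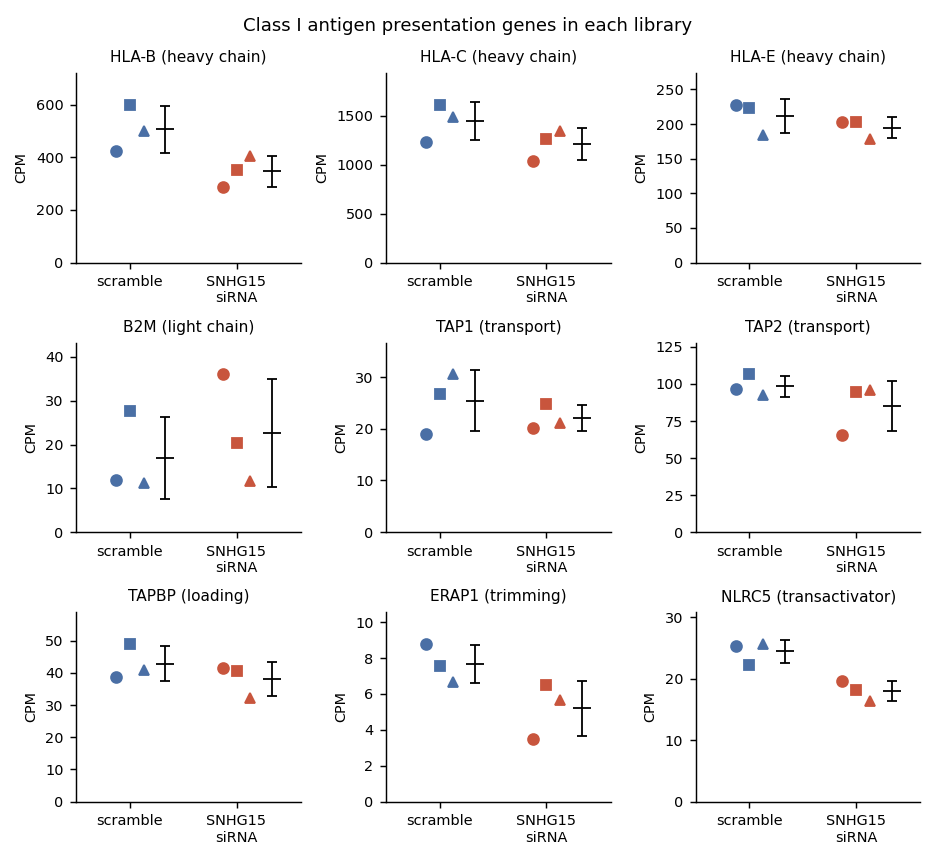
CPM of each of the 9 genes in the 3 scramble and the 3 siRNA libraries, each axis starting at 0, with the mean ± SD (n = 3) beside each condition and replicates 1, 2 and 3 as circles, squares and triangles. The conditions separate for HLA-B, ERAP1 and NLRC5, lower in all siRNA libraries, and overlap for the other genes.

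*HLA-B* encodes one of the classical heavy chains that present peptides to cytotoxic T cells. Its level was 421.9, 599.0 and 497.7 CPM in scramble replicates 1, 2 and 3 and 286.7, 350.0 and 404.3 CPM in siRNA replicates 1, 2 and 3. The conditions did not overlap, the siRNA libraries being lower and the nearest pair being siRNA replicate 3 and scramble replicate 1. The means were 506 ± 88.9 and 347 ± 58.9 CPM (SD, n = 3 each), so that 68.6% of the scramble level was left. The log2 fold change was -0.54 with a standard error of 0.16 and a 95% interval from -0.89 to -0.20. Its adjusted p was 0.0627 with edgeR and 0.0197 with DESeq2, so whether *HLA-B* passes depends on the tool. Without siRNA replicate 1, the library that stood apart, the log2 fold change was -0.43 (edgeR adjusted p = 0.0846), and without siRNA replicate 3 it was -0.67 (edgeR adjusted p = 0.0379).

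*HLA-C*, another classical heavy chain and a ligand of killer cell receptors, was among the most abundant transcripts, at rank 67 to 91 of all genes by CPM. It stood at 1231, 1613 and 1489 CPM in the scramble and 1034, 1264 and 1346 CPM in the siRNA libraries. The highest siRNA libraries, replicates 2 and 3, exceeded the lowest scramble library, replicate 1. The siRNA mean was 84.1% of the scramble mean, with a log2 fold change of -0.25, a 95% interval from -0.55 to 0.05 and an adjusted p of 0.309 (edgeR).

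*HLA-E*, a less variable heavy chain that presents leader peptides of other class I chains to natural killer cells, stood at 227.9, 223.7 and 184.2 CPM in the scramble and 203.7, 203.0 and 177.8 CPM in the siRNA libraries. The conditions overlapped, and in both of them replicate 3 was the lowest. The log2 fold change was -0.12 (95% interval -0.40 to 0.15, edgeR adjusted p = 0.605).

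The heavy chains resemble each other closely, so the sum over *HLA-B*, *HLA-C* and *HLA-E* was also read, in which a read placed on the wrong one of these genes is still counted once. It came to 1881, 2436 and 2171 CPM in the scramble and 1524, 1817 and 1928 CPM in the siRNA libraries, 81.2% of the scramble mean, with siRNA replicate 3 above scramble replicate 1. Of the 1462 windows of 75 bases, the read length, in the canonical transcript of *HLA-B*, 219 also occur in another annotated gene, all of them in an antisense pseudogene with 0 counts in every library. The shared windows were 1.98% of those of *HLA-C* and 2.30% of those of *HLA-E*. The merged exons of *HLA-B* also share 1421 bases, 30.7% of their length, with *DHFRP2*, a processed pseudogene. It lies on the same strand and had 0 to 1 count a library. The reference holds 1 allele of each gene, and how reads from other alleles fared was not tested.

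*B2M* encodes the light chain common to all class I heavy chains, and it had few reads. Its raw counts were 102, 278 and 37 in the scramble and 260, 142 and 99 in the siRNA libraries, which is 11.95, 27.65 and 11.19 CPM against 36.04, 20.43 and 11.63 CPM. Scramble replicate 2 and siRNA replicate 1 stood above the rest of their conditions, and the conditions overlapped. The log2 fold change was 0.35 with a standard error of 0.38 and a 95% interval from -0.46 to 1.17 (edgeR adjusted p = 0.624), the widest interval of the 9 genes. Without siRNA replicate 1 it turned to -0.18 (edgeR adjusted p = 0.785), and without scramble replicate 2 it was 0.96. *B2M* ranked between 4783 and 8239 among all genes across libraries, where *HLA-B* ranked between 211 and 567. The CPM of *HLA-B* was 8.0 to 44.5 times that of *B2M*, and the CPM of *HLA-C* 28.7 to 133 times, with the lowest ratios in siRNA replicate 1. These ranks and ratios are not divided by length, the merged exons being 4623 bases for *HLA-B*, 2507 for *HLA-C* and 3121 for *B2M*. None of the 75-base windows of the canonical *B2M* transcript occurs in another annotated gene.

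*TAP1* and *TAP2* form the transporter that moves peptides into the endoplasmic reticulum. *TAP1* stood at 18.98, 26.76 and 30.54 CPM in the scramble and 20.10, 24.88 and 21.14 CPM in the siRNA libraries, with every siRNA library inside the scramble range. *TAP2* stood at 96.3, 106.5 and 92.2 CPM in the scramble and 65.7, 94.5 and 95.6 CPM in the siRNA libraries, where replicate 1 alone lay below the scramble range. The log2 fold changes were -0.18 for *TAP1* (95% interval -0.58 to 0.21, edgeR adjusted p = 0.596) and -0.21 for *TAP2* (95% interval -0.54 to 0.12, edgeR adjusted p = 0.444). Without siRNA replicate 1 the log2 fold change of *TAP2* was -0.06. Exons of *TAP1* overlap *PSMB8-AS1* on the opposite strand, which had 3 to 16 counts a library, and those of *TAP2* overlap a read-through gene with 0 to 1 count. Of the 75-base windows, 19.6% of those of *TAP1* and 35.0% of those of *TAP2* occur in another annotated gene.

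*TAPBP*, which bridges the transporter and empty heavy chains, stood at 38.8, 49.0 and 40.8 CPM in the scramble and 41.5, 40.7 and 32.1 CPM in the siRNA libraries. The conditions overlapped, and siRNA replicate 3 was the lowest of the 6. Its log2 fold change was -0.18 (95% interval -0.51 to 0.16, edgeR adjusted p = 0.530). Of its 75-base windows, 39.2% occur in another annotated gene, all of those in an antisense RNA that was not counted here.

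*ERAP1*, the aminopeptidase that trims peptides to the length the heavy chains hold, had the lowest level per length. Its raw counts were 75, 76 and 22 in the scramble and 25, 45 and 48 in the siRNA libraries, or 8.79, 7.56 and 6.65 CPM against 3.47, 6.47 and 5.64 CPM. The conditions did not overlap, but scramble replicate 3 and siRNA replicate 2 were close, and siRNA replicate 1 was the lowest. The log2 fold change was -0.58 with a standard error of 0.25 and a 95% interval from -1.13 to -0.04 (unadjusted p = 0.0365, adjusted p = 0.188, edgeR), and -0.38 without siRNA replicate 1. *ERAP1* shares 299 exon bases with *CAST* on the opposite strand, which had 353 to 1319 counts a library. The kit marks strand, but whether the counting used it is not given in the sources used here, and a part of *CAST* reads in these counts was not tested.

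*NLRC5*, the transactivator of the class I genes, stood at 25.43, 22.28 and 25.70 CPM in the scramble and 19.69, 18.12 and 16.33 CPM in the siRNA libraries. The conditions did not overlap, and the spread was small in both, with means of 24.5 ± 1.90 and 18.1 ± 1.68 CPM (SD, n = 3 each). The siRNA libraries held 73.7% of the scramble level, with a log2 fold change of -0.43, a standard error of 0.15 and a 95% interval from -0.76 to -0.11 (unadjusted p = 0.0130, adjusted p = 0.111, edgeR). An offset for GC content brought the adjusted p to 0.0490 (edgeR). With the replicate number as a block added to this offset it was 0.0759 (edgeR), and with DESeq2 it was 0.189. Leaving out a library gave 0.0635 to 0.281 (edgeR). No 75-base window of its canonical transcript occurs in another annotated gene.

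Pairs of genes were compared within each library by the log2 ratio of their CPM, with an exact two-sided permutation test over libraries whose smallest possible p is 0.1. The log2 ratio of *HLA-B* to *HLA-C* was -1.55, -1.43 and -1.58 in the scramble and -1.85, -1.85 and -1.73 in the siRNA libraries. It was lower by 0.29 in the siRNA libraries without overlap, at the smallest exact p that the design allows, 0.1, and 0.267 after adjustment over the 4 pairs. *HLA-B* against *HLA-E* differed by -0.43 and *HLA-B* against *B2M* by -0.94, with overlapping conditions and an exact p of 0.2 for each (0.267 adjusted over the 4 pairs). Without siRNA replicate 1 these differences were -0.26 and -0.41, and without siRNA replicate 3 they were -0.61 and -1.46. *TAP1* against *TAP2* differed by 0.04 (exact p = 0.9), and this difference turned to -0.14 without scramble replicate 1 and -0.07 without siRNA replicate 1. No pair passed an adjusted p of 0.05, which 3 libraries against 3 cannot reach.

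**Figure D3:**
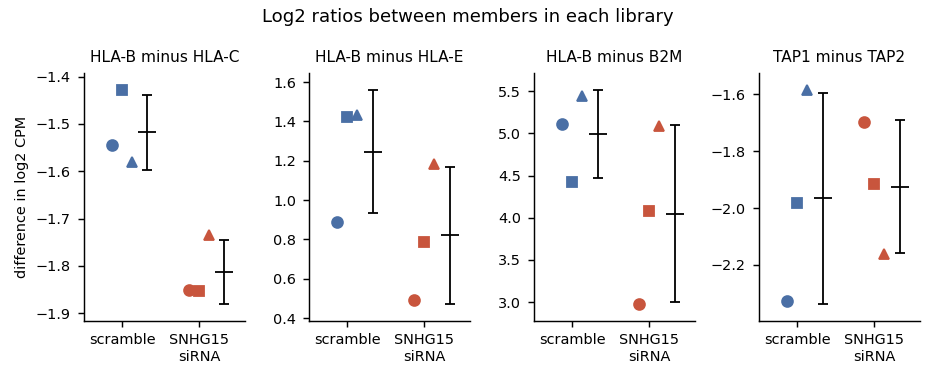
Difference in log2 CPM between both genes of each pair in each library, with the mean ± SD (n = 3) beside each condition, replicates 1, 2 and 3 as circles, squares and triangles, and a separate axis for each pair. The ratio of HLA-B to HLA-C separates the conditions, while the spread of the ratio to B2M is 1.05 in the siRNA libraries alone.

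The rest of the pathway was read from lists of genes. Of 16 other class I and class I-like genes, 8 were tested and none passed with edgeR or DESeq2, beside 5.36% and 6.13% of all genes. At an unadjusted p under 0.05 with edgeR there was 1 of the 8, beside 22.5% of all genes. The median log2 fold change of the 8 was -0.14. *MICA* and *MICB*, ligands of an activating receptor of natural killer cells, had log2 fold changes of -0.16 and -0.10 (edgeR adjusted p = 0.483 and 0.812), and *ULBP2*, a further ligand of this receptor, -0.25 (0.397). *HFE*, a class I-like regulator of iron uptake, had 0.43 (0.360).

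Of 13 peptide loading and trimming partners, all tested, 1 fell and 2 rose, beside 5.36% called and 2.23% called lower among all genes, and the median log2 fold change was -0.19. *CALR*, the gene of calreticulin, which holds newly made heavy chains in the loading complex, went from 268.1, 270.4 and 243.4 CPM to 194.2, 196.2 and 144.9 CPM. All siRNA libraries were lower, at 68.5% of the scramble level (log2 fold change -0.55, standard error 0.14, adjusted p = 0.0382 with edgeR). It passed in 1 of the 6 fits that left out a library, the fit without siRNA replicate 1, and the adjusted p was 0.0678 to 0.149 in the others (edgeR). *PDIA3*, its partner in the loading complex, had a log2 fold change of -0.19 (edgeR adjusted p = 0.419) with overlapping conditions, and *CANX*, a related chaperone, had 0.03 (0.902).

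The genes that rose were *PDIA6*, a disulfide isomerase, and *LNPEP*, a trimming peptidase of endosomes. *PDIA6* went from 4.10, 3.58 and 3.33 CPM to 22.87, 10.36 and 8.46 CPM, with siRNA replicate 1 well above the other siRNA libraries (log2 fold change 1.89, standard error 0.35, adjusted p = 0.0100 with edgeR). It was 1.32 without that library, still past the threshold, and missed it without scramble replicate 2 (edgeR adjusted p = 0.0757). *LNPEP* had 29, 32 and 5 raw counts in the scramble and 68, 33 and 60 in the siRNA libraries, or means of 2.70 and 7.07 CPM (log2 fold change 1.27, standard error 0.31, adjusted p = 0.0336 with edgeR) and passed in 1 of the 6 fits that left out a library, the fit without siRNA replicate 2 (edgeR adjusted p = 0.0273). *ERAP2*, the relative of *ERAP1*, had a log2 fold change of 0.01 (edgeR adjusted p = 0.972).

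The immunoproteasome replaces catalytic subunits of the constitutive proteasome and favours peptides that class I molecules can hold. Of 10 genes of this list 9 were tested and none passed with edgeR, 4 having an unadjusted p under 0.05 beside 22.5% of all genes, and the median log2 fold change was -0.01. With DESeq2, *PSMB9* and *PSME1* passed, beside 6.13% of all genes that it tested. *PSMB9*, an inducible subunit, stood at 29.1, 25.1 and 43.2 CPM in the scramble and 24.7, 16.5 and 17.9 CPM in the siRNA libraries (log2 fold change -0.68, adjusted p = 0.0797 with edgeR and 0.0418 with DESeq2). *PSME1* and *PSME2*, the subunits of the proteasome activator, had log2 fold changes of -0.41 (edgeR adjusted p = 0.0732) and -0.47 (0.0795). For both, and for *PSMB9*, the conditions did not overlap, as for 14.1% of all genes in this direction. *PSMB8*, another inducible subunit, stood the other way, at 109.6, 83.6 and 89.5 CPM in the scramble and 125.9, 118.4 and 110.2 CPM in the siRNA libraries (log2 fold change 0.32, edgeR adjusted p = 0.173). Its conditions did not overlap, which in this direction 14.7% of all genes showed. The fitted values of these inducible subunits lay on both sides of 0, and *PSMB10*, the remaining one, had too few counts to be tested.

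Among 27 transcription factors of class I genes and interferon pathway genes, 25 were tested, 1 fell and none rose. The 5.36% called among all genes is the background for this count. At an unadjusted p under 0.05 there were 10 of the 25, beside 22.5% of all genes, and the median log2 fold change was -0.01. *IRF2*, a factor that binds interferon response elements and is known to act on class I pathway genes, went from 17.93, 17.51 and 19.35 CPM to 9.57, 9.93 and 9.16 CPM. The siRNA libraries lay close together at 52.3% of the scramble level (log2 fold change -0.93, standard error 0.16, 95% interval -1.27 to -0.58, adjusted p = 0.00741 with edgeR). *IRF2* passed in all 6 fits that left out a library and with DESeq2. *RFX5*, a subunit of the complex that binds the X box together with *NLRC5*, stood at 23.8, 22.5 and 22.4 CPM in the scramble and 15.7, 15.3 and 18.3 CPM in the siRNA libraries (log2 fold change -0.48, edgeR adjusted p = 0.0795). *IRF1*, a factor induced by interferon, had -0.18 (edgeR adjusted p = 0.585).

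MHC class II genes, which professional antigen-presenting cells use, were at or near 0. None of 13 could be tested, 12 had 3 counts or fewer in every library (*HLA-DMA* had up to 4), and their summed level was 0.587 to 1.15 CPM in all libraries. *CIITA*, their transactivator and a relative of *NLRC5*, stood at 0.313 CPM in the scramble and 0.190 CPM in the siRNA libraries.

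**Figure D4:**
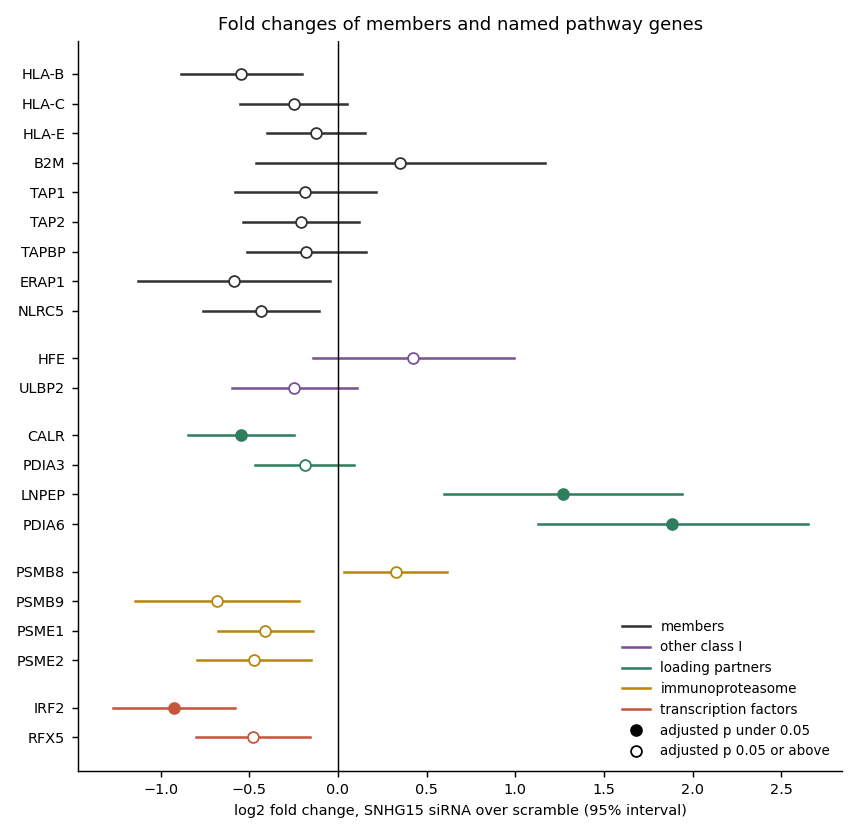
Log2 fold change of the siRNA over the scramble libraries with its 95% interval from edgeR for the 9 genes and for named genes of the lists, filled where the adjusted p is under 0.05. Only CALR, LNPEP, PDIA6 and IRF2 are filled, and the intervals of HLA-B, ERAP1 and NLRC5 lie below 0 without passing after adjustment.

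The genes whose pattern over the 6 libraries came nearest to that of *HLA-B* were found among all genes tested, by the root mean square difference of log2 CPM after centring each gene. They were *BRD1* (difference 0.0487), *RPS7P3* (0.0526), *GTF2IRD1* (0.0630), *ZBTB2* (0.0719) and *VASN* (0.0738). None of the 5 is a gene of antigen presentation. Their log2 fold changes ran from -0.53 to -0.66, and *VASN* alone passed (-0.66, edgeR adjusted p = 0.0391). Fold changes near that of *HLA-B* follow from the choice, which used the same 6 libraries, so neither they nor the p-values test the likeness. *VASN* passed in 1 of the 6 fits that left out a library, the fit without siRNA replicate 3, with an adjusted p of 0.0536 to 0.188 in the others (edgeR), and had 0.0502 under the filter of 10 counts in every library. The *RPS7P3* count is uncertain, since it is a processed pseudogene of a ribosomal protein gene. Likeness over 6 libraries of 2 conditions is a description of these libraries.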

How the data were processed

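RNA-seq of 6 libraries labelled LoVo was analysed, 3 per condition (TruSeq Stranded mRNA, paired reads of 75 bases). The authors deposited raw counts per gene, not normalized. The paper names bowtie2 and hg19, while the submitters' processing notes list STAR and featureCounts without roles. Versions, annotation and the use of strand and of multiply placed reads are not given in the sources used here, so genes with copies or overlaps carry an uncertainty the counts do not show.

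The members and lists were chosen with earlier results of these data known. Counts were tested with edgeR 4.0.16 in R 4.3.3 (filterByExpr at 10 and 15 counts, TMM, quasi-likelihood, Benjamini-Hochberg over 12507 genes, called at an adjusted p under 0.05) without a block. The standard error is the fold change divided by the root of its F statistic. CPM used TMM factors, 0.961 to 1.06, and log2 ratios of CPM a prior count of 2. Replicates of a condition differed by more than sampling noise (chi-square over its degrees of freedom, lowest 4.05). P-values measure the spread between these libraries, which may be partly technical.

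Gene models came from GENCODE release 44 on GRCh37, which lacked 8012 of 63677 identifiers holding 0.567 to 0.607% of the counts. Genes at 3 counts or fewer are at the floor, and such limits cover counting error only. Named genes were all members, *CALR*, *PDIA3*, *PSMB8*, *PSMB9*, every called gene and up to 3 genes of smallest p in each list, and the 5 genes nearest to *HLA-B*. *MICA*, *MICB*, *CANX*, *ERAP2*, *IRF1*, *CIITA*, *PSMB10*, *CDH1* and *KRT8* were added after their values were seen. On simulated counts with 200 genes changed by 1 on the log2 scale, edgeR recovered 147 with 9 false calls among 12348 genes, and DESeq2 1.42.0 recovered 139 with 10. Alternatives were DESeq2, RLE and upper-quartile factors, no filter, at least 10 counts in every library, a GC offset (loess span 0.3), the replicate number as a block, both together, and leaving out each library. Canonical length, and other factors and left-out libraries for the heavy chain sum, were added after seeing the data. Some genes that this rule names are not reported here. Protein, surface levels and the study's other experiments were not analysed here.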

Additional observations from a re-analysis of the deposited data

How the results depend on the processing

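All members but *B2M* had a log2 fold change below 0 under all alternatives tried, and *B2M* was above 0 in all but 1. The count of members past the threshold was 0 with edgeR and 1 with DESeq2, with no filter and with the block and GC offset together (*HLA-B*), and 1 with the GC offset alone (*NLRC5*). When each library was left out it ran from 0 to 1, being 1 without siRNA replicate 3. Among all genes, 671 of 12507 passed in the main fit, 776 of 12659 with DESeq2 and 1312 of 23675 with no filter. The GC offset called 945 of 12507 and, with the block added, 730 of 12507. The filter of 10 counts in every library gave 499 of 10815. Leaving out a library gave from 139 of 12658 (without scramble replicate 2) to 812 of 12803 (without siRNA replicate 1). The adjusted p of *HLA-B* ranged from 0.00155 (no filter) to 0.266 (without scramble replicate 2). Over left-out libraries *B2M* ran from -0.18 (without siRNA replicate 1) to 0.96 (without scramble replicate 2), and the difference in the log2 ratio of *TAP1* to *TAP2* from -0.14 (without scramble replicate 1) to 0.23 (without scramble replicate 3), with -0.07 without siRNA replicate 1. The count of loading and trimming partners was 3, with 1 under the filter of 10 counts in every library (*PDIA6*) and 0 to 2 when a library was left out, 0 without scramble replicate 2 and 1 (*PDIA6*) without scramble replicate 1, scramble replicate 3 or siRNA replicate 3. That of the immunoproteasome was 0, with 2 by DESeq2, 3 with no filter and 0 to 2 without a library, 2 without siRNA replicate 1 (*PSMB9*, *PSME2*). That of the transcription factors was 1, with 2 with no filter (*ATF1*, *IRF2*), 3 with the GC offset (*ATF1*, *IRF2*, *RELA*) and 1 to 4 without a library, 4 without siRNA replicate 1 and 2 without siRNA replicate 3 (*ATF1*, *IRF2*). The cause of these moves was not tested.

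Libraries of the same replicate number had correlations of -0.07, 0.15 and -0.04 in their deviations from the condition means. Libraries of unlike number had -0.17 to 0.14. With 3 libraries per condition, these values cannot settle whether the numbers pair the libraries. With the replicate number as a block, 543 genes passed instead of 671, and the member count stayed at 0 (*HLA-B* -0.54, edgeR adjusted p = 0.0562). Blocked values for the lists were 0, 3, 0, 1 and 0. The lowest counts among the members were 22 for *ERAP1* and 37 for *B2M*, both in scramble replicate 3. *B2M* had a coefficient of variation of 54.9% in the scramble and 54.5% in the siRNA libraries, and *NLRC5*, with 85 counts in scramble replicate 3, had 7.78% and 9.32%.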
